A study of Mus musculus with 10 samples.

Results

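The kinesin motor family was followed in testes of young male mice. The members were the genes whose symbol is Kif with a number and at most 1 letter, or Kifc, after each array probe had been named through its transcript accession. In all, 41 of the 23462 genes named on the array were kinesins, and they carried 75 probes. The brightest probe stood for its gene. Probes had to exceed the background flag of the scanner on 5 or more of the 10 arrays to be tested, which left 39 kinesins of 16738 genes. The remaining kinesins, Kifc1 and Kif12, were below that limit.

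The 5 R animals were sons of dams given 50% of the control food intake from 6.5 days after mating, and unrelated control dams reared them. The 5 C animals were sons of dams fed without limit and were reared by their own mothers, so rearing and prenatal diet differ together and cannot be told apart. All were C57BL/6N males of 6 weeks with free access to food after weaning, and each array held RNA of a single testis, taken with either of 2 column kits. The sources used here do not name litters, and the tests take the 10 animals as independent.

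Kinesins are motors that burn ATP to move along microtubules. Most walk towards the growing plus end with vesicles, organelles or chromosomes, those with the motor at the carboxyl end (Kifc) walk towards the minus end, and the kinesin-13 family shortens microtubules. In the testis, dividing spermatogonia and spermatocytes use them to build spindles and to separate daughter cells, and spermatids use them to shape the head and to build the flagellum.

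The value of a gene on an array, called the log2 signal, was the log2 of the processed spot intensity minus the log2 of the 75th percentile of its array. That percentile lay between 804 and 1019 over the 10 arrays. The share of probes past the background flag ran from 54.6% to 65.9%, and saturated spots were absent. The authors' deposited table of their own comparison counted R replicate 1 among its controls and C replicate 5 among its tested arrays, which goes against the group labels. The groups here are those of the labels, and calls are also given without these 2 arrays. C replicate 2 stood at the end of the C group for many kinesins, with the lowest C value for 21 of the 39 and the highest for 10. The arrays lay on 2 slides, the first with R replicates 1 to 4 and C replicates 1 and 2, the second with R replicate 5 and C replicates 3 to 5. In bulk tissue, fewer cells of a type and less RNA per cell cannot be told apart.

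Of the 39 kinesins tested, 16 differed between R and C testes at an adjusted p under 0.05 in limma's moderated test, with 11 higher and 5 lower in R. That is 41.0% of the kinesins, beside 35.6% of all genes tested, of which 14.9% were higher and 20.6% lower. The median log2 change (R minus C) was 0.16 over the kinesins and -0.03 over all genes. The groups did not overlap for 13 kinesins, 10 with every R testis above every C testis and 3 with every R testis below. Among all genes, 29.1% had groups that did not overlap, 12.6% with R above C and 16.5% with R below. Only 3 kinesins, Kif3b, Kif6 and Kif4, also passed the study's own criterion of a fold above 1.5 or under 0.66, as did 9.9% of all genes.

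The split by direction depended on the scaling. With each array's median as its reference in place of the 75th percentile, every log2 change shifted by -0.21, and the median of all genes became -0.23. The kinesin calls were then 2 higher (Kif3b and Kif6) and 10 lower in R, beside 5.43% higher and 37.3% lower among all genes. The 5 kinesins called lower stayed called, and no called kinesin changed sign, though Kif1b and Kif5a stood near 0 (0.0020 and 0.0049). Directions below refer to the 75th percentile. Without R replicate 1 and C replicate 5, 4 kinesins (Kif3a, Kif6, Kif24 and Kif20b) were called, beside 15.9% of all genes.

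**Figure D1:**
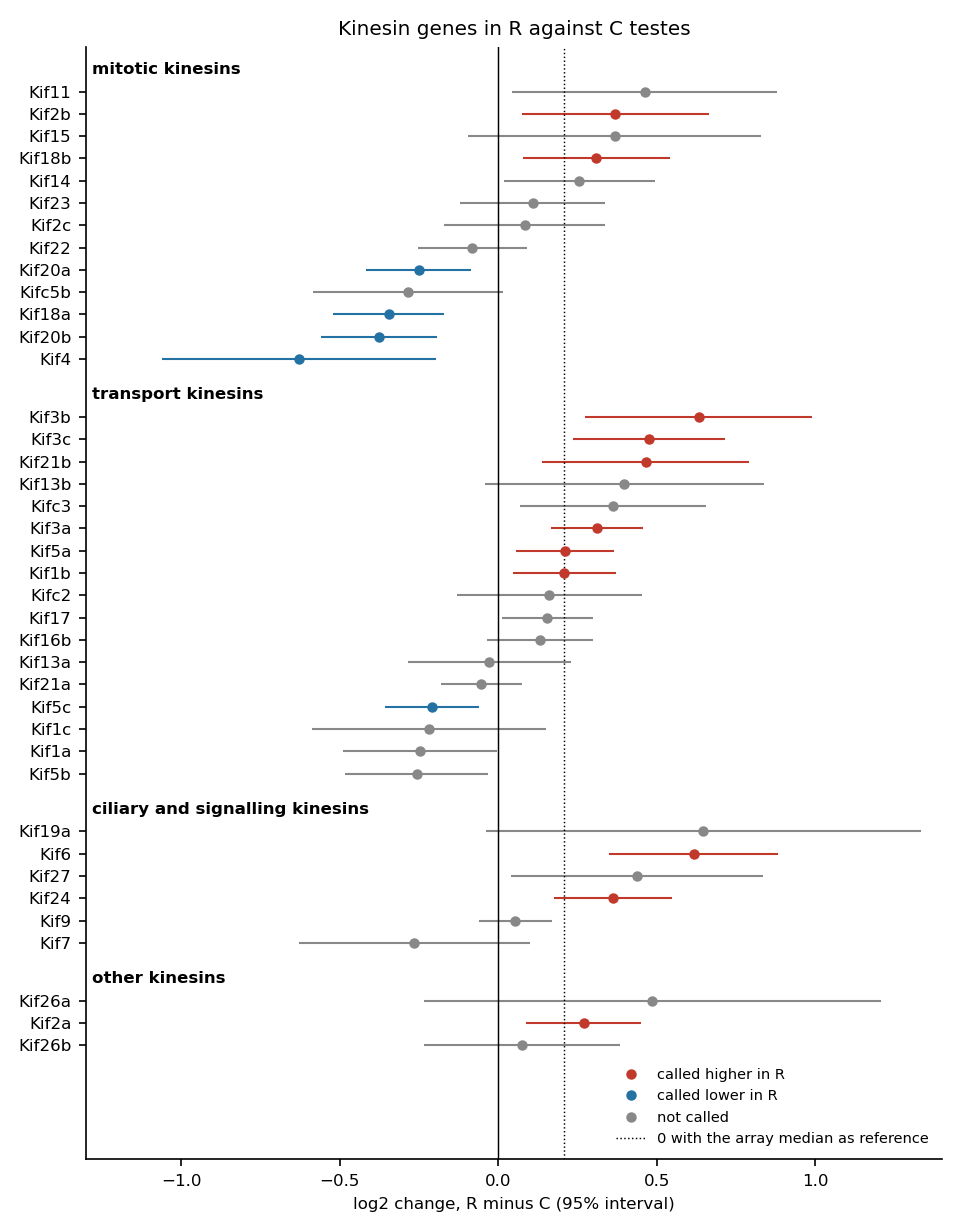
Log2 change of each tested kinesin, R minus C, grouped by role, with the 95% interval of the limma fit over 5 arrays per group. By the brightest probe of each gene, kinesins called higher lay mostly among the transport and ciliary members and 4 of the 5 called lower among the mitotic ones. The dotted line marks where 0 falls with the array median as reference, and only Kif3b and Kif6 were called higher on that scale.

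Among the 13 mitotic kinesins tested, 4 were lower in R testes (Kif18a, Kif20b, Kif20a and Kif4), 2 were higher (Kif18b and Kif2b) and 7 were not called. Their median change was 0.08, beside -0.03 over all genes, of which 20.6% were called lower and 14.9% higher. The balance of the mitotic calls rested on the choice of the brightest probe. With the mean of a gene's probes, 5 mitotic kinesins were higher and 3 lower, with a median of 0.26. Kif15, Kif23 and Kif2c were then added as higher, and the call of Kif20b was lost. The 4 lower genes act from the alignment of chromosomes to cytokinesis: Kif18a limits the movements of chromosomes lined up on the spindle, Kif4 binds chromosomes and shapes the midzone of the spindle, and Kif20a and Kif20b act in cytokinesis. The promoters of the members called, except that of Kif20a, are shown first, because most mitotic kinesins carry a short element of cell-cycle genes that Kif18a and Kif2b lack.

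The stretches below run from 100 bases before the annotated start to 50 bases from it, as RefSeq gives them in GRCm38.p6, and are written along the gene. Capitals mark TTTGAA (the cell cycle genes homology region, CHR), CCAAT, and TGACGTCA (the cyclic AMP response element, CRE), on either strand, so TTCAAA and ATTGG are the same elements read backwards. Kif18b lies at chr11:102925075-102925224 (minus strand), Kif20b at chr19:34922258-34922407 (plus strand) and Kif4 at chrX:100625965-100626114 (plus strand). Kif18a lies at chr2:109280638-109280787 (plus strand) and Kif2b at chr11:91577506-91577655 (minus strand).
Kif18b: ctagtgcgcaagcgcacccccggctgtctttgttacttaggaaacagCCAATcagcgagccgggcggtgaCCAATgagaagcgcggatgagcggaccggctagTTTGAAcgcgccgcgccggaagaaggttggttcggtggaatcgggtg
Kif20b: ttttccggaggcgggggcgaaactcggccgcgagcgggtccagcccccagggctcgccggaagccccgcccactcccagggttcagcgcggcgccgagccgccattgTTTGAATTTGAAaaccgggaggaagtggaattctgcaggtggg
Kif4: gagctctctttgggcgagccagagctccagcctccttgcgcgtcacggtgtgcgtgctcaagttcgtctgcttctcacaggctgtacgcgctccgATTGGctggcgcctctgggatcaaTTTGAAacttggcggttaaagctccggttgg
Kif18a: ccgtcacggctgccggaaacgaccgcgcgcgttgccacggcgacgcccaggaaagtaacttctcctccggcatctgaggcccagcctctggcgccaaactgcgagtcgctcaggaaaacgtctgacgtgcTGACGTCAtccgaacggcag
Kif2b: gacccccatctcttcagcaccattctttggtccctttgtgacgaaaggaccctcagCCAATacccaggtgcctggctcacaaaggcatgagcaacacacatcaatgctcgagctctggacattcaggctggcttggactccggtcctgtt
The CHR stood 3 bases after the start of Kif18b, 7 and 13 bases after that of Kif20b and 19 bases after that of Kif4. Genes with this element were called in both directions, Kif18b higher and Kif20b and Kif4 lower.

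Kif18a, which male mice need for germ cell division, had log2 signals of -0.90, -0.84, -0.82, -0.68 and -0.95 in R replicates 1 to 5, against -0.54, -0.31, -0.61, -0.56 and -0.44 in C replicates 1 to 5. Every R testis was below every C testis. The change was -0.35 ± 0.08 (SE, n = 5 per group, limma adjusted p = 0.00922). It kept its call when any 1 array was left out, and had an adjusted p of 0.0558 without R replicate 1 and C replicate 5. Kif18b, of the same kinesin-8 family, shortens the astral microtubules of the spindle, and it went the other way. Its log2 signals were -0.30, -0.19, -0.40, -0.24 and -0.37 in R testes, against -0.47, -0.97, -0.42, -0.61 and -0.58 in C testes, again without overlap, and C replicate 2 was the lowest by far. The change was 0.31 ± 0.10 (limma adjusted p = 0.0396), a call lost on leaving out any of R replicates 1, 2, 3, 4 and 5 or C replicates 4 and 5 (adjusted p up to 0.0835).

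Both kinesin-6 members called were lower in R. Kif20b had log2 signals of 0.61, 0.76, 0.84, 0.78 and 0.59 in R testes and 0.95, 1.04, 1.17, 1.05 and 1.27 in C testes, with no overlap and a change of -0.38 ± 0.08 (limma adjusted p = 0.00775). This call held without any 1 array, and without R replicate 1 and C replicate 5 (adjusted p = 0.047). A second Kif20b probe was called in the opposite direction, at 0.31 (adjusted p = 0.00663), so the direction of Kif20b rests on the choice of the brighter probe, and the mean of the probes gave -0.03. Kif20a, which carries the chromosomal passenger complex to the midzone, had 1.76, 1.93, 1.78, 1.72 and 1.69 in R testes and 2.14, 2.14, 2.01, 1.89 and 1.96 in C testes. Only R replicate 2 reached into the range of the C group. Its change was -0.25 ± 0.07 (limma adjusted p = 0.0257), a call lost on leaving out any of R replicates 1, 3, 4 and 5 or C replicate 1 (adjusted p up to 0.0608). Kif23, the third member of this family and a part of centralspindlin, was not called at 0.11 (limma adjusted p = 0.41), while its other probe, nearly as bright, was called higher at 0.60 (adjusted p = 0.00430).

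Kif4 had the largest change of a mitotic kinesin, at a dim probe that was above background on 4 of 5 R arrays. Its log2 signals were -3.62, -3.37, -4.29, -4.26 and -3.94 in R testes, against -3.12, -2.92, -3.30, -3.54 and -3.47 in C testes. R replicate 2 lay inside the C range and R replicate 1 near it, and R replicates 3 and 4 were lowest. The change was -0.63 ± 0.19, or 1.55-fold lower (limma adjusted p = 0.0293), a call lost on leaving out any of R replicates 3, 4 and 5 or C replicates 1 and 2 (adjusted p up to 0.0684). Kif2b, a kinesin-13 that corrects faulty attachments of chromosomes, had 5.49, 5.41, 5.70, 5.57 and 5.50 in R testes and 5.13, 4.68, 5.39, 5.41 and 5.21 in C testes. The groups touched at R replicate 2 and C replicate 4, and C replicate 2 was lowest. The change was 0.37 ± 0.13 (limma adjusted p = 0.0497), a call lost on leaving out any of R replicates 1, 2, 3, 4 and 5 or C replicates 1 and 5 (adjusted p up to 0.104) and under quantile normalisation (adjusted p = 0.0719).

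The mitotic kinesins that were not called ranged from -0.29 for Kifc5b to 0.46 for Kif11, the motor that pushes spindle poles apart. Kif11 had log2 signals of -1.90, -2.07, -1.99, -1.04 and -2.02 in R testes and -2.23, -2.53, -2.12, -2.29 and -2.15 in C testes, without overlap, and R replicate 4 stood apart (95% interval 0.04 to 0.88, limma adjusted p = 0.0733). Kif15, which backs up Kif11, was at 0.37 (limma adjusted p = 0.176), and its 2 other probes were called higher at 0.68 and 0.44. The kinetochore kinesin-13 Kif2c was at 0.08 and its second, dimmer probe was called higher at 0.64. Kif14, which acts in cytokinesis, was at 0.26 and the chromosome-binding Kif22 at -0.08. Kifc1 was above background on 1 R and 3 C arrays, and Kifc5b is a near copy of it, so their signals are uncertain.

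**Figure D2:**
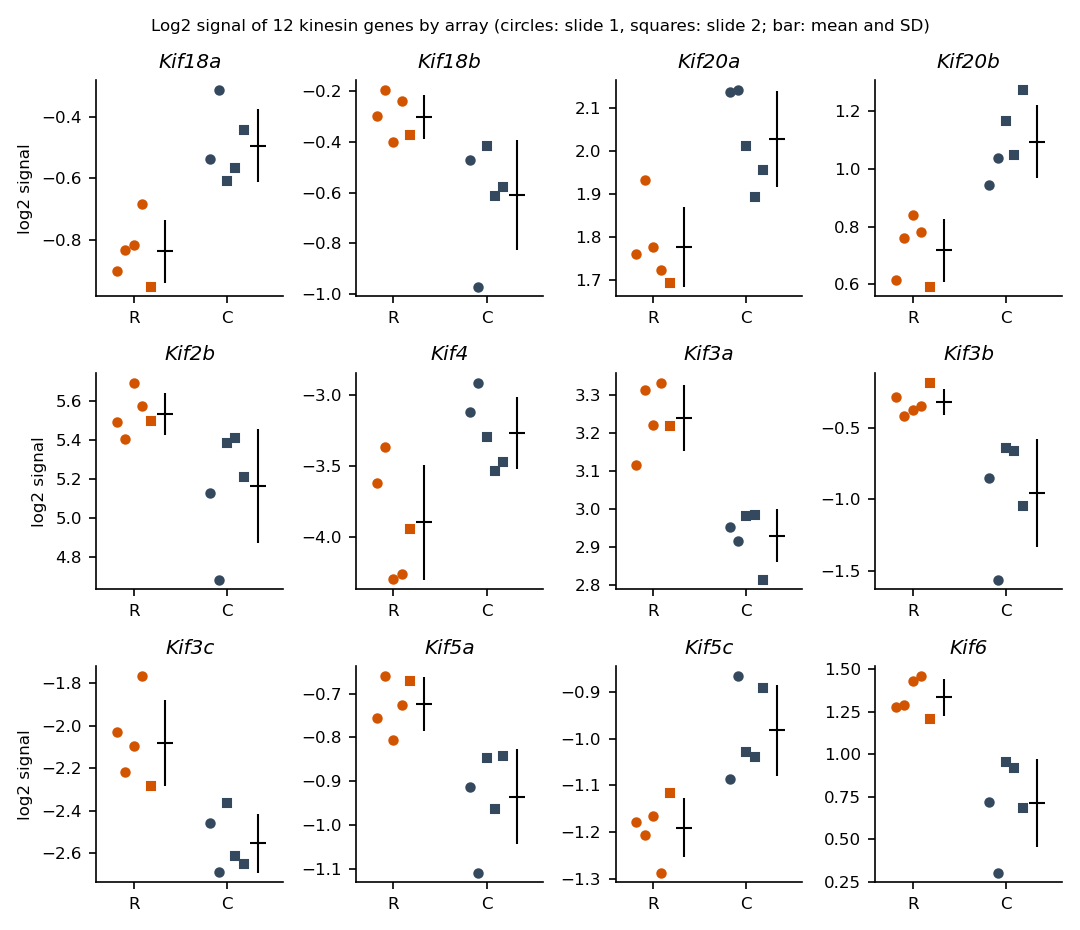
Log2 signal of 12 called kinesins on each array, R left and C right in each panel, with the group mean and SD beside the points; circles are slide 1 and squares slide 2, and each panel has its own axis. R and C points did not overlap for Kif18a, Kif18b, Kif20b, Kif3a, Kif3b, Kif3c, Kif5a, Kif5c and Kif6, and C replicate 2 (second circle of the C group) was often the most distant point.

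Among the 17 transport kinesins, all tested, 6 were higher in R testes (Kif3a, Kif3b, Kif3c, Kif21b, Kif5a and Kif1b), 1 was lower (Kif5c) and 10 were not called. Their median change was 0.16, beside -0.03 over all genes, of which 14.9% were called higher and 20.6% lower. These calls also depended on the brightest probe. With the mean of a gene's probes, 5 transport kinesins were higher and 2 lower, with a median of 0.16. Kifc3 was then added as higher and Kif5b as lower, and the calls of Kif3c and Kif1b were lost. Mitotic and transport kinesins then both had more calls higher than lower. Of the 6 transport kinesins called higher by the brightest probe, 3 belong to kinesin-2, the motor of vesicle transport and of transport into cilia and flagella. In it, Kif3a pairs with Kif3b or with Kif3c. Promoters of 3 kinesin-2 genes and of Kif5c are shown beside those of the mitotic genes because the CHR is missing from them, and because Kif17 and Kif5c hold a full CRE. Kif3a lies at chr11:53567269-53567418 (plus strand) and Kif3b at chr2:153291316-153291465 (plus strand). Kif17 lies at chr4:138262151-138262300 (plus strand) and Kif5c at chr2:49619186-49619335 (plus strand).
Kif3a: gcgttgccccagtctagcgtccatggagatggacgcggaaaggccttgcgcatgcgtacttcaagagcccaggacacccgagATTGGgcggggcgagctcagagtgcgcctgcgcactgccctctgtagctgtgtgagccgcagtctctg
Kif3b: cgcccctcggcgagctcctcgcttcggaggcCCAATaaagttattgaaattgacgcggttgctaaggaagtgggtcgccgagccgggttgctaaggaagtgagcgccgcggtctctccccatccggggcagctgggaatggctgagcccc
Kif17: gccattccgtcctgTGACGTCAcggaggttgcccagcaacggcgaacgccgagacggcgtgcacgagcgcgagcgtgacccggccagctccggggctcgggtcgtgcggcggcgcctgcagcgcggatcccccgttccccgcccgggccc
Kif5c: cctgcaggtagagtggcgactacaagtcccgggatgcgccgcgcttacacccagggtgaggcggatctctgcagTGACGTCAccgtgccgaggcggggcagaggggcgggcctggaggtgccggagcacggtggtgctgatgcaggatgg
The capitals are as above. The CRE began 86 bases before the start of Kif17 and 26 bases before that of Kif5c, and Kif18a was the remaining kinesin with one.

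Kif3a, which mouse spermatids need to shape the head and to build the flagellum, had log2 signals of 3.12, 3.31, 3.22, 3.33 and 3.22 in R testes, against 2.95, 2.92, 2.98, 2.99 and 2.81 in C testes. Every R testis was above every C testis. The change was 0.31 ± 0.07 (SE, limma adjusted p = 0.00679), and the call held without any 1 array and without R replicate 1 and C replicate 5 (adjusted p = 0.0277). Its second probe was at 0.18 and was not called. Kif3b had -0.28, -0.42, -0.37, -0.34 and -0.18 in R testes and -0.85, -1.56, -0.64, -0.66 and -1.05 in C testes, where C replicate 2 was lowest. The groups did not overlap, and the change was 0.63 ± 0.16, or 1.55-fold higher (limma adjusted p = 0.0141). The call held without any 1 array, had an adjusted p of 0.0666 without R replicate 1 and C replicate 5, and stayed called with the array median as reference at 0.43 (adjusted p = 0.0205).

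Kif3c had log2 signals of -2.03, -2.22, -2.10, -1.77 and -2.29 in R testes and -2.46, -2.69, -2.37, -2.61 and -2.65 in C testes, again with no overlap. The change was 0.48 ± 0.11 (limma adjusted p = 0.00913) and held without any 1 array, with an adjusted p of 0.0536 without R replicate 1 and C replicate 5. Its second, dimmer probe was at -0.05 and was not called, and the mean of the probes was 0.21 (limma adjusted p = 0.131), which ends the call. The fourth kinesin-2 gene, Kif17, which in mouse spermatids moves a transcriptional coactivator out of the nucleus, was at 0.16 (95% interval 0.01 to 0.30, limma adjusted p = 0.0783).

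The kinesin-1 heavy chains, which carry vesicles and organelles over long distances, did not go one way. Kif5a had log2 signals of -0.76, -0.66, -0.81, -0.73 and -0.67 in R testes, against -0.91, -1.11, -0.85, -0.96 and -0.84 in C testes, so that R lay above C without overlap (0.21 ± 0.07, limma adjusted p = 0.0357). Kif5c had -1.18, -1.20, -1.16, -1.29 and -1.12 in R testes, against -1.09, -0.87, -1.03, -1.04 and -0.89 in C testes, so that R lay below C without overlap (-0.21 ± 0.07, limma adjusted p = 0.0333). The call of Kif5a was lost on leaving out any of R replicates 1, 2, 4 and 5 or C replicates 1 and 4 (adjusted p up to 0.0754) and that of Kif5c on leaving out any of R replicates 1, 2, 3 and 4 or C replicate 5 (adjusted p up to 0.0813). Quantile normalisation also ended the call of Kif5a (adjusted p = 0.0533). The second probe of Kif5a was called higher at 0.67. Kif5b, the form found in most tissues, was at -0.26 (limma adjusted p = 0.0657) at its brightest probe, while 2 of its dimmer probes were called lower at -0.78 and -1.09 and the last was at 0.09. The mean of the Kif5b probes was lower at -0.51 (limma adjusted p = 0.00907).

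Kif21b, which slows the growth of microtubules, had log2 signals of 1.03, 0.71, 1.09, 0.98 and 1.17 in R testes and 0.48, 0.05, 0.84, 0.72 and 0.58 in C testes. R replicate 2 fell below C replicates 3 and 4. The change was 0.47 ± 0.15 (limma adjusted p = 0.0316), a call lost on leaving out any of R replicates 1, 3, 4 and 5 or C replicates 1 and 5 (adjusted p up to 0.0707). Kif1b, a carrier of mitochondria and of synaptic vesicle precursors, had 1.85, 2.10, 2.11, 2.04 and 2.05 in R testes and 1.97, 1.72, 1.83, 1.77 and 1.83 in C testes, with R replicate 1 inside the C range. Its change of 0.21 ± 0.07 was at the edge of the threshold (limma adjusted p = 0.046), lost on leaving out any of R replicates 2, 3, 4 and 5 or C replicates 2, 3, 4 and 5 (adjusted p up to 0.0979). Scaled to the array median it was 0.00. Its other 3 probes were at -0.08, at 0.76 (called higher) and at -0.55 (called lower), and their mean with the brightest was 0.09 (limma adjusted p = 0.358).

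The authors' deposited table, with its own grouping, listed 4 of these genes at q-values of 0.515. Its log2 ratios were 0.24 for Kif1b, 0.24 to 0.28 for 4 spots of Kif5a, -0.20 for Kif5b and -0.50 for Kif4.

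The transport kinesins that were not called ran from -0.26 for Kif5b to 0.40 for Kif13b, which was above background on 3 R and 2 C arrays. Kifc3, a minus-end motor, was closest to the threshold at 0.36 (limma adjusted p = 0.0525). Kif16b, a motor of early endosomes, was at 0.13 with every R testis above every C testis, and was not called (adjusted p = 0.177). The vesicle carriers Kif1a and Kif1c were at -0.25 and -0.22, Kif13a at -0.03, Kif21a at -0.05 and Kifc2 at 0.16.

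Of the 6 ciliary and signalling kinesins, Kif6 and Kif24 were higher in R testes and none was lower, and the median change was 0.40. All genes tested had a median of -0.03, with 14.9% called higher and 20.6% lower. Kif6, which belongs to the kinesin-9 family of motile cilia, had log2 signals of 1.28, 1.29, 1.43, 1.46 and 1.21 in R testes, against 0.72, 0.31, 0.95, 0.92 and 0.68 in C testes. Every R testis was above every C testis, and C replicate 2 was lowest. The change was 0.62 ± 0.12, or 1.53-fold higher (limma adjusted p = 0.00513), and a second probe was also called higher at 0.67 (adjusted p = 0.00937). The call held without any 1 array, without R replicate 1 and C replicate 5 (adjusted p = 0.0324) and with the array median as reference at 0.41 (adjusted p = 0.00991).

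Kif24, a kinesin-13 that holds back the growth of cilia, had log2 signals of -0.24, -0.18, -0.23, -0.13 and -0.19 in R testes, against -0.57, -0.80, -0.35, -0.46 and -0.60 in C testes, without overlap. The change was 0.36 ± 0.08 (limma adjusted p = 0.00972), which held without any 1 array and without R replicate 1 and C replicate 5 (adjusted p = 0.0476). Kif27, a relative of Kif7 in motile cilia, was at 0.44 (limma adjusted p = 0.0748). Kif19a, which trims microtubules at the tips of cilia, had -2.56, -2.54, -0.92, -2.65 and -2.51 in R testes and -2.79, -3.28, -2.76, -2.71 and -2.87 in C testes, with R replicate 3 far above the rest (0.65, limma adjusted p = 0.116). Kif9, which the mouse sperm flagellum needs for its beat, was at 0.05 (95% interval -0.06 to 0.17), with 1 of its 3 other probes called higher at 0.19. Kif7, of the Hedgehog pathway, was at -0.26 and above background on 2 R and 4 C arrays.

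The other kinesins were placed in none of these classes. Kif2a shares its family with the mitotic Kif2b and Kif2c, and the mitotic counts above leave it out. Kif2a, a microtubule-shortening kinesin-13, had log2 signals of 2.53, 2.68, 2.51, 2.50 and 2.38 in R testes and 2.43, 2.17, 2.29, 2.28 and 2.09 in C testes. Only R replicate 5 fell below the highest C testis. The change was 0.27 ± 0.08 (limma adjusted p = 0.0273), and a dimmer probe was called higher at 0.998. The call was lost on leaving out any of R replicates 1, 2, 3 and 4 or C replicate 5 (adjusted p up to 0.0593). Kif26a was at 0.49 and Kif26b at 0.08, neither called, and a dim second probe of Kif26b was called lower at -0.48. Kif12 was above background on no R array and 1 C array.

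By family and by the brightest probe, all called members of kinesin-2 (3 of 4 tested, with the call of Kif3c lost by the mean of its probes) and of kinesin-13 (3 of 4) were higher in R, and both called members of kinesin-6 (2 of 3) were lower. Kinesin-1, kinesin-4 and kinesin-8 each held 1 gene called higher and 1 called lower. No member of the 3 tested kinesin-14 genes was called. The direction of kinesin-6 also rested on the brightest probe. With the mean of a gene's probes, Kif20a stayed lower at -0.25 and Kif20b lost its call at -0.03. Kif23 was then called higher at 0.35 (limma adjusted p = 0.0200). Over all 64 tested kinesin probes, 21 were called higher and 9 lower. The shares over all probes of the array were not counted, and by gene they were 14.9% higher and 20.6% lower. Probes of the same gene disagreed in places: 8 called genes had another tested probe, all probes had the same sign in 5 of these, and Kif20b and Kif1b had probes called in opposite directions. A further 6 genes had a dimmer probe called while the brightest was not.

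All 16 called kinesins had the same sign within slide 1 and within slide 2, as did 99.7% of all 5955 called genes. The same arrays made the calls, so this is no independent check. Within slide 1, with 4 R and 2 C arrays, 16 kinesins were called, 12 higher and 4 lower, beside 39.6% of all genes. There, Kif3b changed by 0.85, Kif6 by 0.85, Kif3a by 0.31 and Kif18a by -0.38. Within slide 2, with 1 R and 3 C arrays, the values were 0.60 for Kif3b, 0.36 for Kif6, 0.29 for Kif3a and -0.41 for Kif18a. With slide as a term in the fit, 20 kinesins were called, 13 higher and 7 lower, beside 51.5% of all genes. Kif1b was the only kinesin that lost its call there (adjusted p = 0.0560), and Kif27, Kif13b, Kifc3, Kif1a and Kif5b were added.

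**Figure D3:**
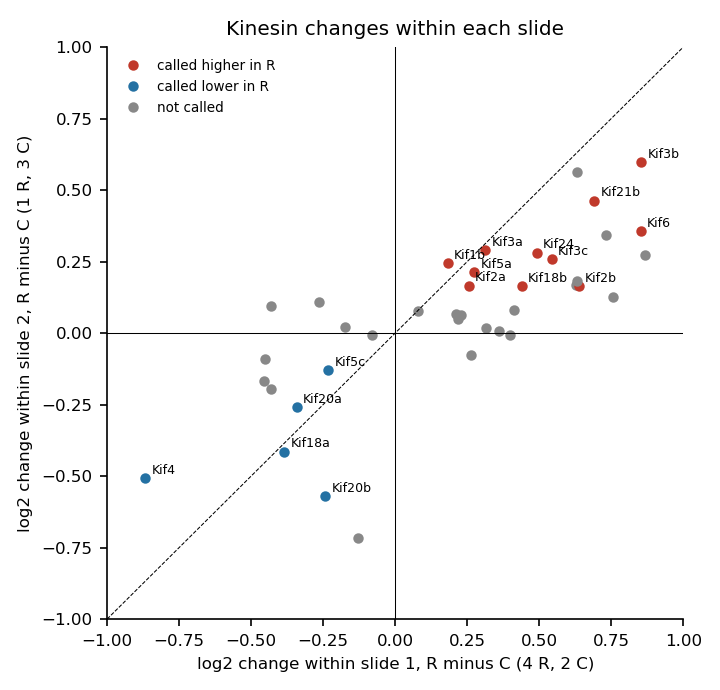
Log2 change of each tested kinesin, R minus C, within slide 1 (x axis, 4 R and 2 C arrays) and within slide 2 (y axis, 1 R and 3 C arrays), with the dashed line at equal changes. The 16 called kinesins lie in the quadrants where both changes have the same sign, as nearly all called genes did.

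Genes that work with kinesins were counted for comparison, with 17 of 71 tested called, 5 higher and 12 lower in R. That is 23.9% of them (7.04% higher, 16.9% lower), beside the 35.6% of all genes (14.9% higher, 20.6% lower), and the mean of a gene's probes gave 10 higher and 10 lower. Of 23 spindle and cytokinesis partners, 6 were lower and 1 was higher, with a median of -0.05. The cytokinesis genes Ect2 and Anln were lower at -0.83 and -0.59 (limma adjusted p = 0.000987 and 0.00128). The only other Ect2 probe was called in the opposite direction, so its direction rests on the brighter probe. The mitotic kinases Cdk1 and Aurkb were at -0.66 and -0.40 and the cyclin Ccnb1 at -0.37, all called lower. Plk1, a kinase that directs Kif20a and Kif23, was the member called higher, at 0.28 (limma adjusted p = 0.0374). It was named after its values were seen, and its call was lost on leaving out any of R replicates 1, 2, 4 and 5 or C replicates 2, 4 and 5 (adjusted p up to 0.0827). Cenpe, the kinesin-7 of the kinetochore, which the symbol rule leaves out, was at 0.13 and was not called (adjusted p = 0.192).

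Of 13 kinesin light chains and cargo adaptors, the mitochondrial adaptor Trak2 alone was called, lower at -0.64 (limma adjusted p = 0.00392), and the median was 0.05. The only probe of Trak2 was dim (mean log2 signal -4.21 in R and -3.57 in C) and was above background on 4 of 5 R arrays. Of 19 subunits and regulators of dynein and dynactin, the minus-end motor system, Dync1h1 was higher at 0.47 (limma adjusted p = 0.0240), a call lost without R replicate 4 (adjusted p = 0.0543). The dynein partners Pafah1b1, Dctn6 and Dync1i2 were lower at -0.33, -0.20 and -0.25, and the median was -0.09. Both other probes of Dync1i2 were called in the opposite direction, and its call was lost on leaving out any of R replicates 1, 2, 4 and 5 or C replicates 1 and 4 (adjusted p up to 0.0947). Of 16 intraflagellar transport genes, whose protein trains kinesin-2 pulls, 3 were higher (Ift140 at 0.33, Ift122 at 0.28 and Ift46 at 0.23) and 2 were lower (Dync2li1 at -0.43 and Ift80 at -0.40), and the median was -0.05. The call of Ift46, whose other probe had the opposite sign without a call, was lost on leaving out any of R replicates 1, 3, 4 and 5 or C replicates 1 and 5 (adjusted p up to 0.0639). When scaled to the array median, the 4 lists had 0 calls higher and 28 lower (39.4%), beside 5.43% higher and 37.3% lower among all genes.

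**Figure D4:**
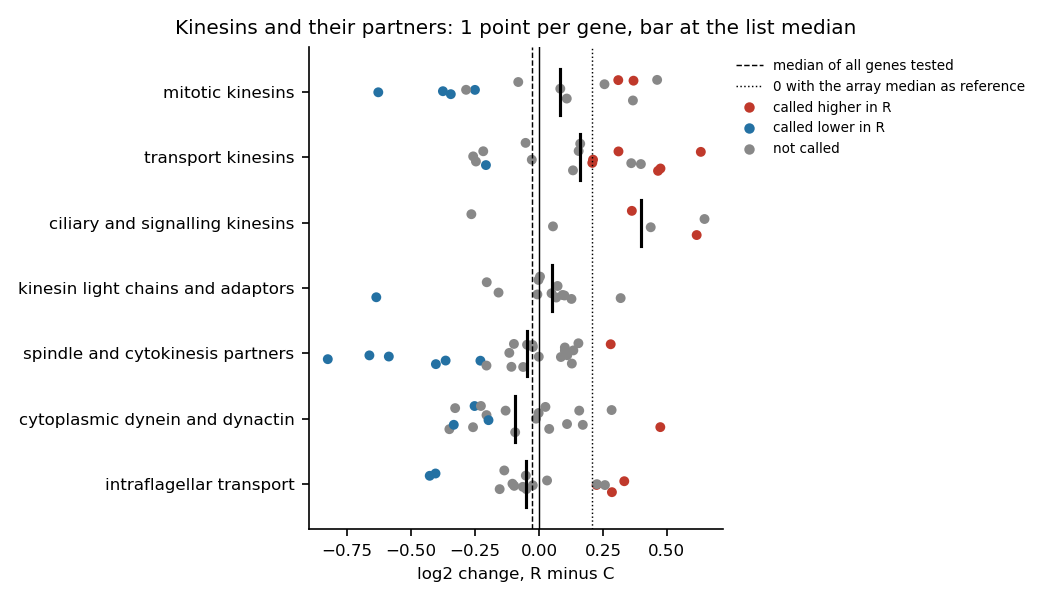
Log2 change of each tested gene, R minus C, for 3 roles of kinesins and 4 lists of partner genes, with a bar at each list's median. The medians were 0.08, 0.16 and 0.40 for mitotic, transport and ciliary kinesins, and 0.05 to -0.09 for the partner lists, with the median of all genes at -0.03; the dotted line marks where 0 falls with the array median as reference.

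Markers of some testis cell types differed between the groups as well, and their part in the kinesin changes was not tested. The counts of called markers stand beside 20.6% of all genes called lower and 14.9% higher. Elongating spermatid markers, which define testis of this age, had mean log2 signals of 6.86 to 7.05 in R and 6.83 to 7.09 in C, and 1 of 7 (Odf1) was called, lower. Of 7 round spermatid markers, 0 were called, and 2 had an unadjusted p under 0.05 in limma. Summed linear levels of the elongating list, in units of the array's 75th percentile, were 1145 to 1306 in R and 1094 to 1301 in C. Beside the mitotic kinesins, 3 of 5 proliferation markers were lower (summed level 20.4 to 22.7 in R, 25.4 to 29.1 in C). Of 8 spermatogonial markers, 4 were lower and 1 was higher (19.3 to 22.2 in R, 24.2 to 41.3 in C). Of 8 spermatocyte markers, 4 were lower (212 to 226 in R, 212 to 252 in C). Of 10 Sertoli cell markers, 9 were lower (163 to 185 in R, 219 to 350 in C).

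Beside the transport kinesins, 1 of 10 nerve and Schwann cell markers was higher (Snap25) and 1 lower (S100b), and the median change was -0.15. The summed level was 16.7 to 23.1 in R and 7.97 to 12.02 in C with Snap25, and 2.61 to 3.01 in R and 3.01 to 3.97 in C over the other 9 genes. Beside the ciliary kinesins, 5 of 7 markers of ciliated efferent duct and epididymal epithelium were above background on too few arrays to be tested, and the other 2, Foxj1 and Rnase10, were not called. Of 7 Leydig cell markers 3 were lower, and of 6 tested macrophage markers 4 were lower. Of 5 endothelial markers 2 were higher, and of 5 peritubular and smooth muscle markers 1 was higher. Among all genes, 20.6% were called lower and 14.9% higher.

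Promoter windows of 300 bases, 250 before the annotated start and 50 after, were matched from RefSeq (GRCm38.p6) for 33 of the 41 kinesins, in 37 windows. On either strand, TTTGAA was present in 11 of 13 mitotic windows (84.6%), 1 of 13 transport windows (Kif1a) and 1 of 6 ciliary windows (Kif27), against 17.9% of all 32851 windows. Kif18a and Kif2b were the mitotic genes without it. The windows of Kifc1 and Kifc5b are near copies of each other and both count as mitotic, also for CCAAT and TGACG below. CCAAT was in 9 of 13 mitotic, 4 of 13 transport and 3 of 6 ciliary windows, against 37.4% of all. Both windows of Kif1b overlap and hold the same sites, so 3 of 11 transport genes had it. TGACG, a part of the CRE and so found within each CRE, was in 8 of 13 mitotic and 8 of 13 transport windows (7 of 11 transport genes), against 20.8% of all. GTTGCC, an arm of the X-box of ciliary genes, was in 2 of 13 mitotic, 5 of 13 transport and 3 of 6 ciliary windows (2 of 5 genes, since both windows of Kif9 overlap and hold the same site), against 12.5% of all. The windows differed in base composition, with a median of 60.7% G and C in mitotic, 69.3% in transport and 52.7% in all windows. The promoter of Kif11, at chr19:37376282-37376431 (plus strand), shows CCAAT before the CHR, and Kif11 was not called.
Kif11: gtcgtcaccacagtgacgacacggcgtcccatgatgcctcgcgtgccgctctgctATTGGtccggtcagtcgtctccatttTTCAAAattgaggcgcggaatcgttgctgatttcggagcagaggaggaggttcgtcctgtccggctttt

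**Figure D5:**
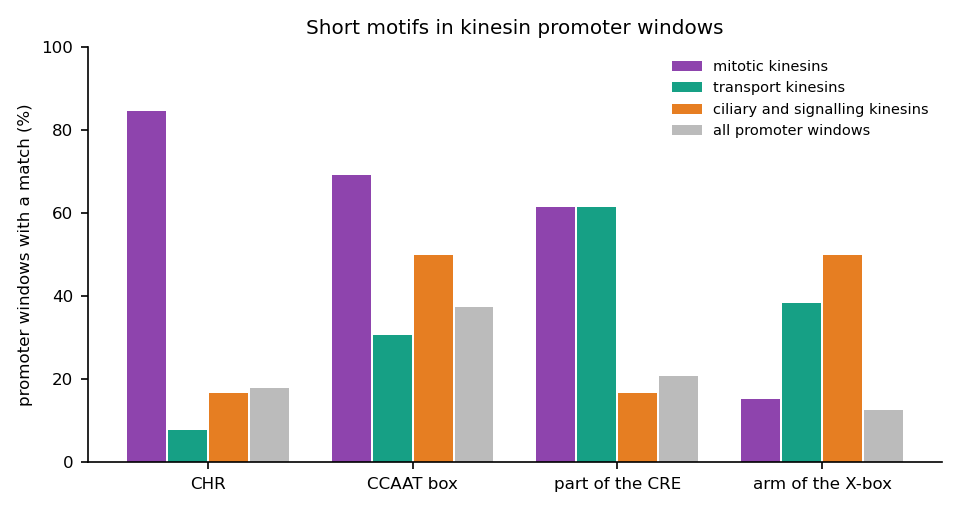
Share of promoter windows (300 bases) with at least 1 match to a short motif on either strand, for 13 mitotic, 13 transport and 6 ciliary kinesin windows and for all 32851 windows. The CHR was in 84.6% of mitotic windows and in 17.9% of all windows, while TGACG was equally frequent in mitotic and transport windows.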

How the data were processed

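RNA of 10 single testes was measured on 1-colour arrays. The submitters' processing notes name Agilent Feature Extraction 12.0.3.1 for the spot intensity values the authors deposited. These were, per the file headers, background-subtracted and detrended within an array, not normalised between arrays, and annotated on mm9. Background and outlier flags came from the same deposited files. The authors' deposited table of their own comparison held scaled intensity, log2 ratios, p-values and q-values, and 10 of its columns of per-sample values were not used here.

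Control and outlier spots were left out, spots of a probe were averaged, and each array's 75th percentile was subtracted on the log2 scale. Of 56605 probes, 33851 were tested (2 more were dropped for a missing value) with limma 3.58.1 in R 4.3.3, 2-sided, with Benjamini-Hochberg adjustment over all of them. A call is an adjusted p under 0.05. Accessions named 33767 probes through the RefSeq table of GRCm38.p6. Normexp (offset 50) was run on median spot signals. Other alternatives covered scaling, filters, slide, arrays left out and the table's grouping, and scaling over probes was added after seeing the data. Precision is limited by the number of arrays.

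The members and lists were chosen with earlier results of these data known. Every kinesin could be named, and from each partner list up to 5 tested genes with the smallest p, Cenpe, and marker genes at the extremes of their lists. Plk1 was named outside this rule. On simulated data with 200 of 33851 probes changed, the R against C test recovered 68% of 2-fold and 96% of 4-fold changes, with 12 false calls. That is a far smaller share than the 35.6% of genes called here, and changes under 2-fold were not simulated. These rates therefore do not give the power for the kinesin changes.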

Additional observations from a re-analysis of the deposited data

Results flagged for a closer look

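In 3 of the 78 groups of 5 arrays examined over the 39 tested kinesins, 1 array stood far from the other 4 by Dixon's ratio, whose critical value for 5 samples is 0.71, and chance flags about 1 group in 20. Kif19a was at -0.92 in R replicate 3, with the other R testes between -2.65 and -2.51. Kif11 was at -1.04 in R replicate 4, with the other R testes between -2.07 and -1.90. Kif1b was at 1.85 in R replicate 1, with the other R testes between 2.04 and 2.11.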

How the results depend on the processing

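No paired analysis was possible because the labels carry no replicate numbers that pair R with C animals. The count of called kinesins, 16, was 7 without a filter on dim probes and 4 without R replicate 1 and C replicate 5 (15.9% of all genes). It was 0 under the grouping of the authors' table (2 at an unadjusted p under 0.05 in limma). The share over all genes was not counted without the filter, under the table's grouping or with 1 array left out. Slide 2 alone held 1 R array, so calls within it are not given. Leaving out 1 array gave 7 to 17, with 9, 10, 8, 7 and 9 calls without R replicates 1 to 5 in turn and 10 without C replicate 5. The other alternatives gave 12 to 20.

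The mitotic median of 0.08 became -0.12 with the array median as reference, 0.23 within slide 1, -0.032 with array weights and 0.26 with the mean of a gene's probes, and ran from -0.0029 to 0.14 with 1 array left out. The transport median of 0.16 became 0.10 with normexp, -0.045 with the array median, 0.22 with the authors' scaling factors, 0.22 within slide 1 and 0.084 under the table's grouping. The ciliary median of 0.40 became 0.19 with the array median, 0.61 within slide 1 and 0.23 with array weights. The 17 called partner genes became 28 with the array median, beside 5.43% of all genes higher and 37.3% lower. They became 26 with slide as a term (51.5% of all genes) and 7 without R replicate 1 and C replicate 5 (15.9% of all genes). Under the table's grouping, 0 were called (2 at an unadjusted p under 0.05 in limma). The causes of these shifts were not tested, and the settings of a single slide or with arrays left out also hold fewer arrays. No called kinesin changed sign under any alternative run. Of the 16 calls, Kif18a, Kif20b, Kif3a, Kif3b, Kif3c, Kif6 and Kif24 held whichever single array was left out. Of the 39 tested kinesins, 34 were above background on all 10 arrays, and signal over background limits Kif4, Kif7, Kif13b, Kif26b and Kifc5b.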
